A study of Mus musculus with 48 samples.

Results

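The R848 response of macrophages that lack the kinase Lyn was set against the R848 response of wild-type (WT) macrophages, gene by gene. The quantity is the response difference, which is (LynKO with R848 minus LynKO without ligand) minus (WT with R848 minus WT without ligand) on the log2 scale. It was taken from 16 of the 48 RNA-sequencing libraries of the series, chosen by their labels: 4 LynKO libraries with R848, 4 LynKO libraries without ligand (NT), 4 WT libraries with R848 and 4 WT libraries without ligand. LynKO is the total knockout, which lacks both splice isoforms of Lyn, LynA and LynB; how the allele was made, the strain and the age of the mice are not given in the labels. Each genotype is represented by 4 mice, of which the labels give mice 1 and 2 as male and mice 3 and 4 as female. The 2 libraries of a genotype that share a mouse number in the labels are treated as paired. All 4 groups are bone marrow-derived macrophages, which were grown for 7 days with M-CSF and then rested overnight without it. The treated cells received 20 ng/mL R848 for 2 h, and the untreated cells received M-CSF-free medium for the same time.

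Lyn is a Src-family tyrosine kinase of myeloid and B cells that phosphorylates both activating receptors, through their ITAM adaptors, and inhibitory receptors that carry ITIM motifs. R848 (resiquimod) is an imidazoquinoline that activates Toll-like receptor 7 in mouse cells. The receptor signals through the adaptor MyD88 to NF-kB and the MAP kinases, and within a few hours macrophages make cytokines, chemokines, feedback inhibitors and metabolic enzymes. A fold response has a start and an end, so a response difference can come with a changed level before the ligand, a changed level with the ligand, or both. Each gene was therefore also compared between LynKO and WT without ligand, and between LynKO and WT with R848.

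The libraries held 14974764 to 22783998 counts, and 13252 genes passed the filter on low counts. The targeted gene, Lyn, lies on the plus strand of chromosome 4 at 3678115 to 3813122 (GRCm38). With R848 it had 105, 127, 103 and 108 CPM (counts scaled to the size of the library) in the LynKO mice 1 to 4, against 383, 371, 432 and 429.7 CPM in the WT mice. Without ligand it had 69.5, 78.97, 76.1 and 71.5 CPM in LynKO and 208, 194, 185 and 183 CPM in WT. Every LynKO library lay below every WT library of the same treatment, and the LynKO libraries kept reads at the locus. The Lyn response to R848 was itself smaller, at 0.58 ± 0.07 in LynKO and 1.07 ± 0.07 in WT (log2 fold change ± SE), with a response difference of -0.49 ± 0.10 (edgeR adjusted p = 0.0363). Lyn passed in 2 of the 8 fits without 1 mouse, with the highest adjusted p, 0.125, without LynKO 2.

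One library stands apart. LynKO NT 4, labelled female, held 89.6 CPM of Y-linked transcripts beside 294 CPM of Xist, while the other libraries labelled female held at most 0.654 CPM of Y-linked transcripts. LynKO R848 4, which the labels give to the same mouse, held 0 CPM of Y-linked transcripts beside 409 CPM of Xist, so these 2 libraries go against the label of one mouse. The calls without LynKO mouse 4 are therefore given as well. Markers of macrophages were the bulk of the cell type markers in all 4 groups: the 12 genes, among them Adgre1, Cd68 and Csf1r, summed to 27200 to 31500 CPM in LynKO with R848, 33100 to 35400 in LynKO NT, 37000 to 39800 in WT with R848 and 46500 to 55200 in WT NT. Neutrophil and granulocyte progenitor markers summed to 147 to 181 CPM in LynKO with R848, 104 to 115 in LynKO NT, 200 to 229 in WT with R848 and 154 to 190 in WT NT. Of the 12 T and NK cell markers, Nkg7 and Gzma were at 0 in all 16 libraries and the sum was at most 3.55 CPM. Mast cell markers reached at most 3.41 CPM with Cma1 and Tpsb2 at 0, and stromal and endothelial markers at most 16.7 CPM with Emcn and Lum at 0. B cell markers summed to 75.3 to 121 CPM, osteoclast markers to 62.3 to 143, erythroid and megakaryocyte markers to 8.52 to 57.1 with Slc4a1 and 3 globin genes among those at 0, eosinophil markers to at most 20.2 with Prg3 at 0, and dendritic cell markers to at most 10.1. In these bulk samples, fewer cells of a type and less RNA per cell cannot be told apart, and the part of these marker differences in the results was not tested.

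R848 changed most of the transcriptome in both genotypes. In LynKO 8051 genes (60.8%) passed an adjusted p of 0.05, 3881 up and 4170 down, and in WT 8603 genes (64.9%) did, 4205 up and 4398 down. The response differed between the genotypes in 87 of the 13252 genes (0.657%), with a positive difference in 22 (0.166%) and a negative one in 65 (0.49%), by edgeR's quasi-likelihood test with the mouse as a block. No gene among the 87 rose in one genotype and fell in the other. Of the 22, 15 rose in both genotypes, 5 fell in both, Rara fell in WT without passing in LynKO, and Dkc1 rose in LynKO without passing in WT. Of the 65, 44 rose in both, 6 fell in both, 9 rose in WT without passing in LynKO, and 6 fell in LynKO without passing in WT. At an unadjusted p under 0.05 there were 1895 genes (14.3%), and the median response difference over all genes was -0.02. Just inside the threshold lay Sh3bgrl2 (adjusted p = 0.0459) and Dkc1 (0.0473), and just outside it Reps1 (0.0506) and Prkd3 (0.0521).

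**Figure D1:**
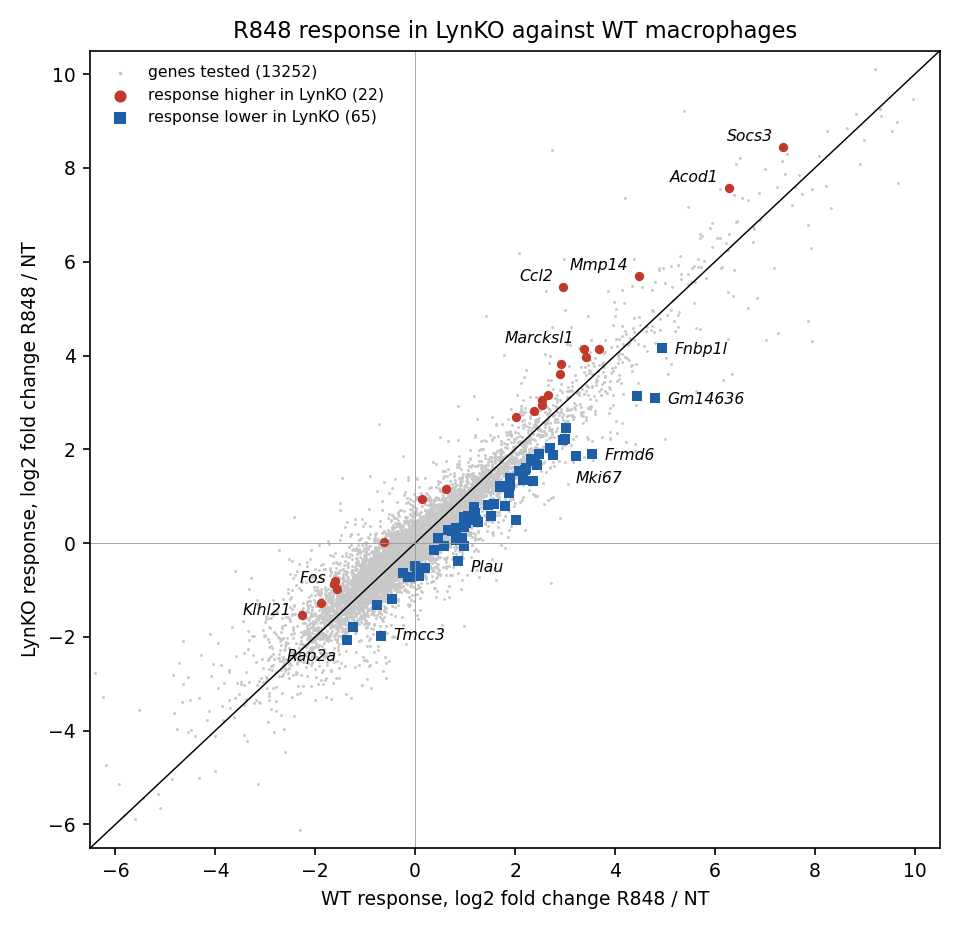
Log2 fold change with R848 in WT (x axis) and in LynKO (y axis) of the 13252 genes tested, with the 22 genes of higher response in LynKO as red circles and the 65 of lower response as blue squares; the diagonal marks equal responses. Most genes lie along the diagonal, and the coloured genes lie on both sides of it. They range from strongly induced genes such as Socs3 and Acod1 to genes that fell, such as Fos and Tmcc3.

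This count rests on the pairing and on each mouse. Without the mouse block 3 genes passed, Acod1, Frmd6 and Tmcc3 (adjusted p = 0.00719, 0.00169 and 0.00169), and all 87 kept their sign. Without LynKO mouse 4, 42 genes passed (11 positive, 31 negative), 40 of them among the 87. Of the genes described below, those that did not pass without it were Lyn (0.0762), Birc3 (0.117), Ccl2 (0.111), Nfatc2 (0.117), Klhl21 (0.121), Ccdc85b (0.147), Mnt (0.0947), Dkc1 (0.125), Plau (0.136), Thbs1 (0.0738), Bcl2 (0.0987), Spred2 (0.0663), Trib1 (0.0728), Mad2l1 (0.131), E2f8 (0.0762), Sirpa (0.0987) and C5ar1 (0.107), with the adjusted p in brackets. Leaving out LynKO mouse 1, 2 or 3 left 33 genes (10 and 23), 28 genes (9 and 19) and 67 genes (13 and 54). Leaving out WT mouse 1, 2, 3 or 4 left 52 (17 and 35), 60 (15 and 45), 56 (20 and 36) and 60 genes (14 and 46). In each of these fits all 87 genes kept their sign, and 21 genes passed in all 8 of them. Among the 21 were Acod1, C3, Fos, Marcksl1, Mmp14, Sod2 and Tnfaip2 with a positive difference, and Clic4, Fam102b, Frmd6, Heatr5a, Itgav, Mgat4a, Mki67, Osbpl3, Pcdh7, Pik3ap1, Pot1b, Rap2a and Tmcc3 with a negative one.

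**Figure D2:**
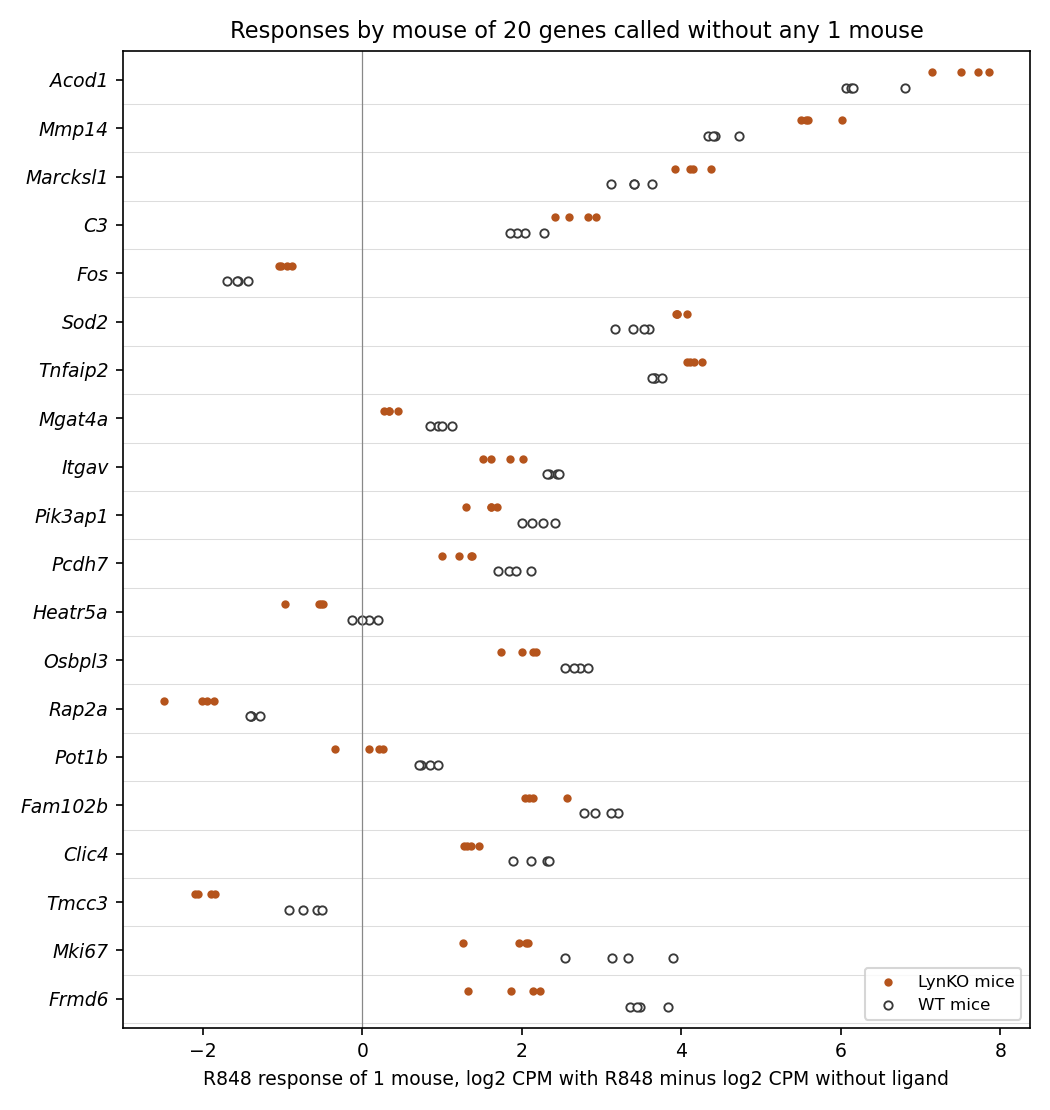
R848 response of each mouse (log2 CPM with R848 minus log2 CPM without ligand, x axis) for 20 of the 21 genes that passed in each fit without 1 mouse, with 4 LynKO mice as filled points above 4 WT mice as open points in each row. The LynKO and WT points of a row do not overlap in any of the 20 genes, as in 86 of the 87 genes and in 8.2% of all genes tested (3.04% with LynKO above WT and 5.16% with LynKO below). The genes were chosen by the response difference of these mice, so the lack of overlap is no further test.

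The start level and the level with R848 separate the positive and the negative genes. Without ligand 935 genes (7.06%) differed between LynKO and WT, 524 higher and 411 lower in LynKO. With R848 1187 genes (8.96%) differed, 510 higher (3.85%) and 677 lower (5.11%), and 1899 differed with the replicate number as a block. Of the 22 genes with a positive response difference, 13 differed only without ligand, 3 only with R848 and 6 in both states. The start was lower in LynKO in 18 of the 22, against 3.1% of all genes, and higher in 1, Fos. The median difference of the 22 was -0.17 with R848 and -0.77 without ligand. Of the 65 with a negative difference, 26 differed only without ligand, 28 only with R848, 4 in both states and 7 in neither. The start was higher in LynKO in 29 of the 65, against 3.95% of all genes, and lower in 1, Lyn; the level with R848 was lower in 32, against 5.11%, and higher in 0. Their median difference was -0.34 with R848 and 0.29 without ligand, where all genes had medians of -0.01 and 0.0019. A response difference is made of these 2 level differences, so the shares describe the genes and are no further test.

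**Figure D3:**
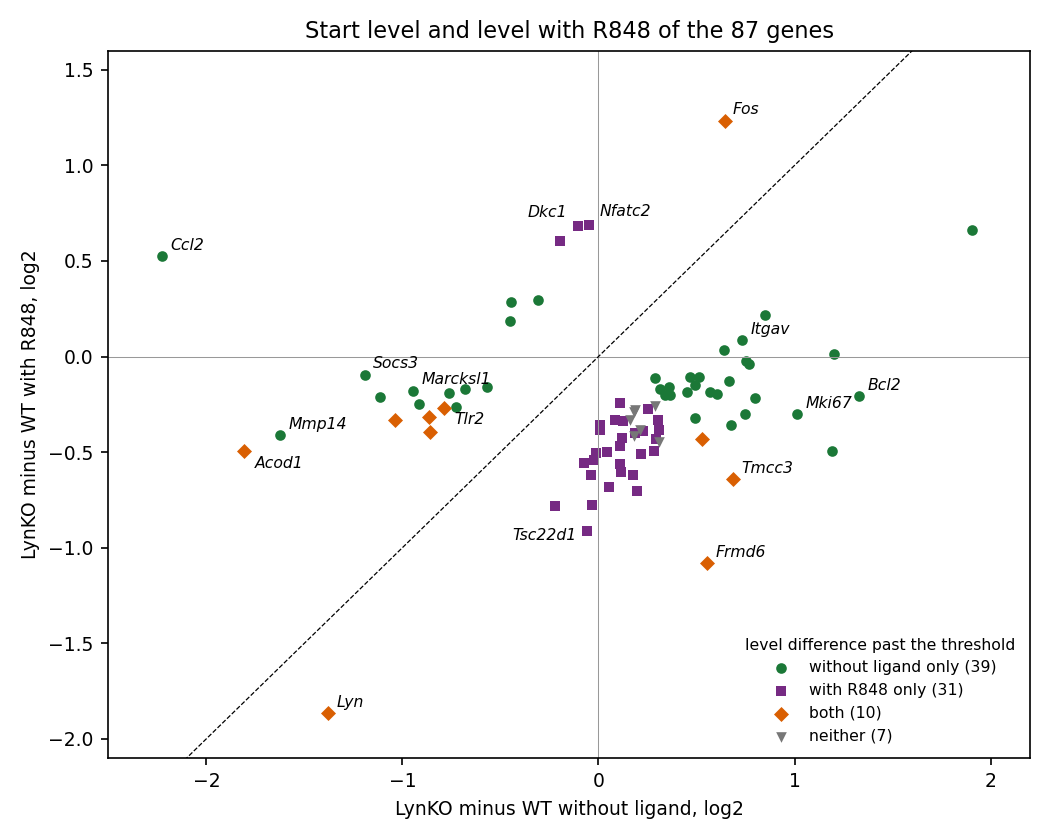
Difference between LynKO and WT without ligand (x axis, log2) against the difference with R848 (y axis, log2) for the 87 genes; symbols give the state in which the difference passed the threshold, and the dashed diagonal marks an equal difference in both states. Genes above the diagonal have a positive response difference and lie mainly left of zero, and genes below it split between a group to the right of zero and a group below zero.

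These class counts moved with the mouse left out, as did the number of genes entering them and the calls of the 2 level comparisons. Over all 87 genes, 39 differed only without ligand, 31 only with R848, 10 in both states and 7 in neither. The 4 counts were 15, 8, 3 and 7 without LynKO 1, 16, 4, 4 and 4 without LynKO 2, 22, 25, 5 and 15 without LynKO 3, and 23, 9, 7 and 3 without LynKO 4. They were 20, 16, 7 and 9 without WT 1, 22, 23, 10 and 5 without WT 2, 34, 8, 6 and 8 without WT 3, and 23, 14, 4 and 19 without WT 4. The genes that differed without ligand numbered 593 without LynKO 1, 607 without LynKO 3 and 600 without WT 1, and those that differed with R848 numbered 701 without LynKO 1, 702 without WT 3 and 751 without WT 4.

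Mmp14, Marcksl1 and C3 were induced from a lower start in LynKO. Mmp14, a membrane-anchored matrix metalloproteinase (GRCm38 chromosome 14, 54431612 to 54445364), reached 191, 197, 291 and 254 CPM with R848 in the LynKO mice and 296, 229, 373 and 343 CPM in the WT mice. Its start was 3.87, 4.25, 6.06 and 3.80 CPM in LynKO, against 14.6, 10.6, 13.99 and 16.2 CPM in WT, so that the groups overlapped with R848 and lay apart without it. It rose by 5.69 ± 0.10 in LynKO and 4.48 ± 0.09 in WT (log2 ± SE), a response difference of 1.21 ± 0.13 (edgeR adjusted p = 0.000438), while its level differed by -0.41 ± 0.16 with R848 (adjusted p = 0.115) and -1.62 ± 0.20 without ligand (4.44e-05). Marcksl1, an actin-binding protein of the MARCKS family, followed the same course, with 1006 ± 176 CPM in LynKO and 1139 ± 95.6 in WT with R848, and 56.7 ± 5.997 and 109 ± 16.5 without it (mean ± SD, n = 4 each). Its response difference was 0.75 ± 0.11 (adjusted p = 0.00782). C3, the central complement component, started at 88.6 ± 11.2 CPM in LynKO and 167 ± 25.8 in WT and had a response difference of 0.67 ± 0.12 (0.0143); its level with R848 did not pass (-0.25 ± 0.12, 0.236).

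Acod1, the enzyme that makes the antimicrobial metabolite itaconate (GRCm38 chromosome 14, 103046977 to 103056573), was lower in LynKO in both states. With R848 it had 3421, 3524, 4128 and 2693 CPM in the LynKO mice, against 4853, 4252, 5012 and 5285 CPM in the WT mice, and without ligand 18.7, 16.6, 17.7 and 18.9 CPM in LynKO, against 72.2, 60.9, 44.8 and 74.3 CPM in WT. No LynKO library reached the lowest WT library of its state. The level difference was -0.50 ± 0.13 with R848 (adjusted p = 0.0239) and -1.81 ± 0.14 without ligand (6.68e-07), and the response difference was 1.28 ± 0.16 (0.00114). So the fold induction was higher in LynKO while the level reached was lower. Acod1 was also one of the 3 genes that passed without the mouse block, and without LynKO mouse 4 its response difference was 1.41.

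Tnfaip2, Sod2, Tlr2, Fas and Birc3 also started lower in LynKO and had a positive response difference. Tnfaip2, an early NF-kB target, had 3487 ± 269 CPM in LynKO and 4583 ± 374 in WT with R848, against 197 ± 19.99 and 357 ± 24.1 without ligand, and a response difference of 0.47 ± 0.07 (adjusted p = 0.00985). Sod2, the mitochondrial superoxide dismutase, had 1238, 1237, 1357 and 1462 CPM with R848 in the LynKO mice, against 1456, 1424, 1841 and 1876 CPM in WT, and 80.6, 80.3, 87.9 and 86.9 CPM without ligand in LynKO, against 162, 135, 152 and 162 CPM in WT. Tlr2, the receptor for bacterial lipoproteins, differed by -0.27 ± 0.07 with R848 and -0.79 ± 0.07 without ligand, both past the threshold (0.0248 and 4.59e-06), and had a response difference of 0.51 ± 0.09 (0.0125). In these 3 genes LynKO was lower in both states, and by less with R848. Fas, the death receptor, differed by -0.33 ± 0.10 with R848 and -1.04 ± 0.12 without ligand, and Birc3, an inhibitor of apoptosis, by -0.16 ± 0.07 (0.136) with R848 and -0.57 ± 0.07 (3e-05) without it. Their response differences were 0.72 ± 0.15 and 0.41 ± 0.09 (adjusted p = 0.038 and 0.038), and both calls were lost in most fits without 1 mouse. Tlr2 passed in 7 of the 8 fits without 1 mouse, with the highest adjusted p, 0.0598, without LynKO 1. Fas passed in 1 of the 8 fits without 1 mouse, with the highest adjusted p, 0.138, without LynKO 1. Birc3 passed in 2 of the 8 fits without 1 mouse, with the highest adjusted p, 0.117, without LynKO 4.

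Socs3, Ier3 and Ccl2 likewise started lower in LynKO. Socs3, which inhibits cytokine receptor signalling, had 1740.2, 1764, 1768 and 2119.6 CPM with R848 in the LynKO mice and 1796, 1999, 2029.6 and 2068 CPM in the WT mice, and 5.06, 4.56, 6.11 and 5.46 CPM without ligand in LynKO, against 16.2, 8.53, 10.7 and 13.2 CPM in WT. The levels with R848 differed by -0.09 ± 0.13 (0.698), and the response difference of 1.08 ± 0.18 (0.0125) came with a start difference of -1.19 ± 0.15 (7.11e-05). Socs3 passed in 7 of the 8 fits without 1 mouse, with the highest adjusted p, 0.0531, without LynKO 2. Ier3, an immediate early gene that modulates cell survival, had a start difference of -1.11 ± 0.14 and a response difference of 0.89 ± 0.16 (0.0196). Ier3 passed in 7 of the 8 fits without 1 mouse, with the highest adjusted p, 0.06, without LynKO 2. Ccl2, the monocyte chemoattractant, had the largest fitted difference of the 22, 2.49 ± 0.53 (0.0435), on low and uneven starts. It had 0.723, 0.922, 0.858 and 1.23 CPM without ligand in LynKO, against 7.60, 8.44, 0.575 and 1.28 CPM in WT. There mice 1 and 2, labelled male, were high, and mice 3 and 4, labelled female, lay close to the LynKO values. With R848 it had 44.5, 35.8, 37.6 and 46.7 CPM in LynKO, against 29.98, 38.8, 22.2 and 23.2 CPM in WT. Ccl2 passed in 2 of the 8 fits without 1 mouse, with the highest adjusted p, 0.137, without LynKO 1.

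**Figure D4:**
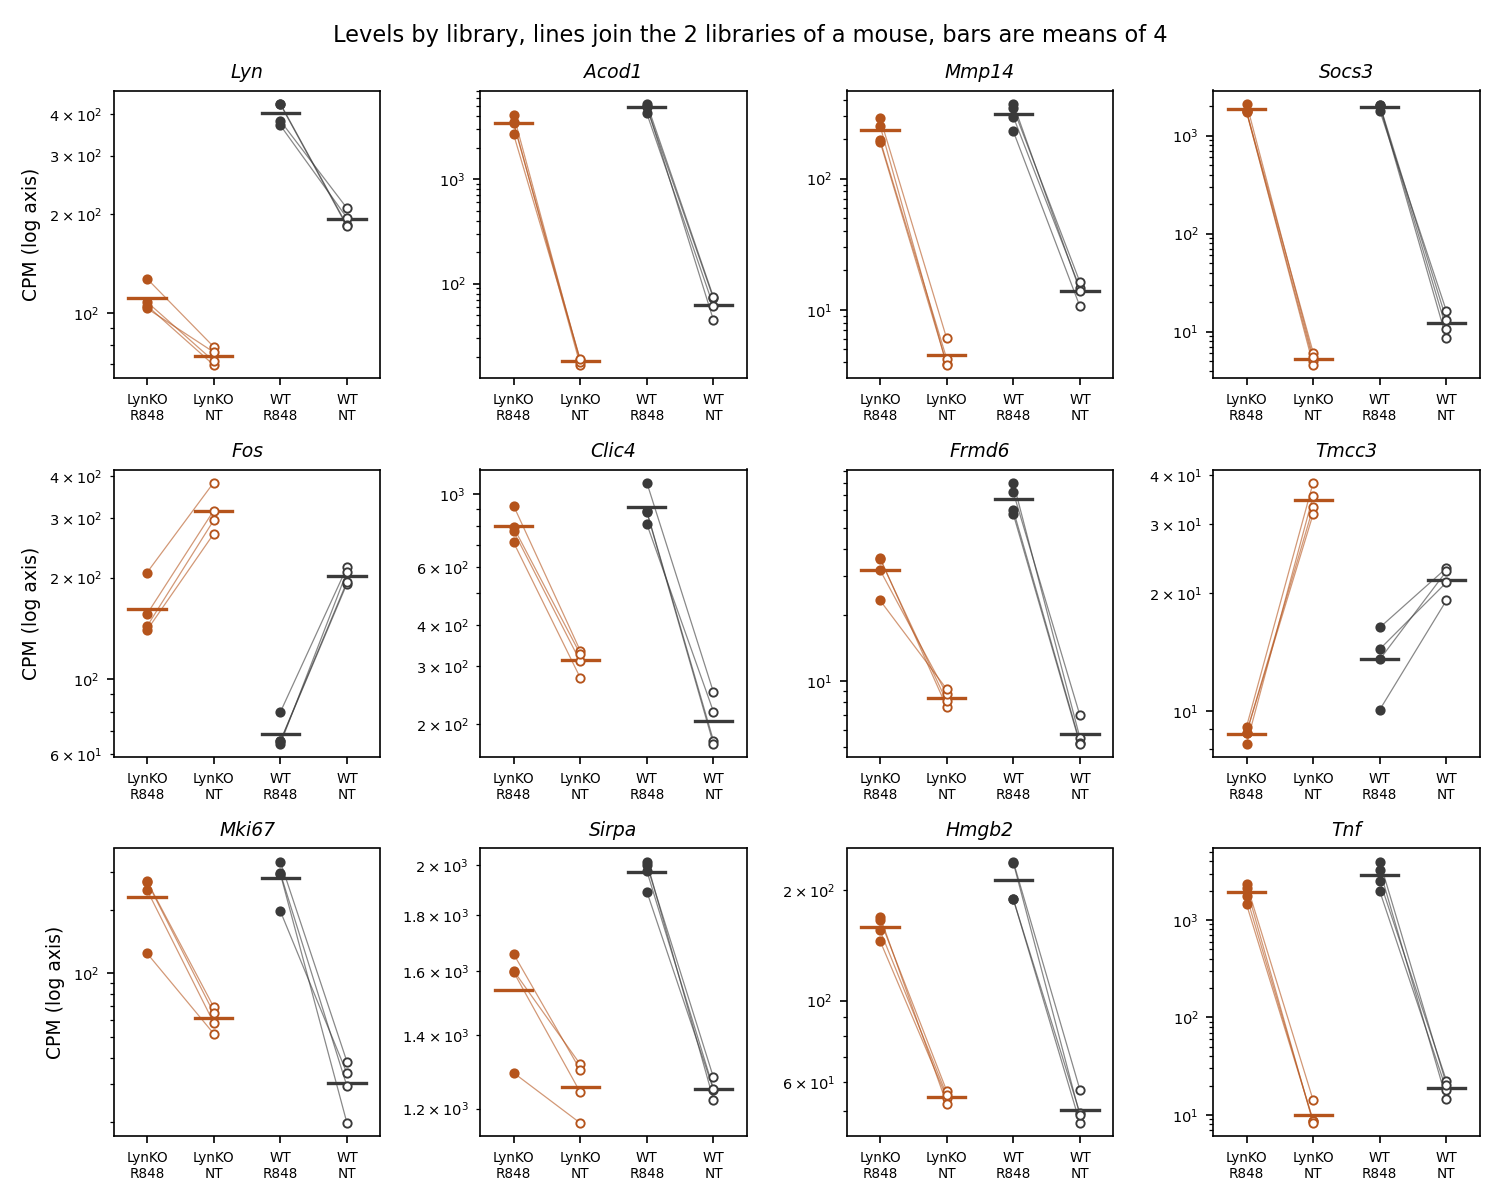
CPM of 12 genes in each library on log axes, with LynKO in brown and WT in black, filled points with R848 and open points without ligand, lines joining the 2 libraries of a mouse and bars at the mean of 4. Acod1, Mmp14 and Socs3 start lower in LynKO, Clic4 and Mki67 start higher in LynKO, and Sirpa and Hmgb2 overlap at the start and end lower in LynKO.

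Genes that were lower after 2 h of R848 than without ligand made up a second kind of positive difference, in which the fall on the log2 scale was smaller in LynKO. Levels before 2 h were not measured. Fos, the AP-1 subunit, had 143, 139.8, 156 and 207 CPM with R848 in the LynKO mice, against 65.3, 79.7, 64.2 and 65.4 CPM in the WT mice, and 296, 269.7, 316 and 383 CPM without ligand in LynKO, against 192, 215, 208 and 194 CPM in WT. Its response was -0.97 ± 0.06 in LynKO and -1.56 ± 0.06 in WT, a fall in both, with a response difference of 0.59 ± 0.09 (adjusted p = 0.0066); it was the one gene of the 22 that started higher in LynKO and moved further above WT, to 1.23 ± 0.12 (1.5e-05). On the CPM scale the fall of Fos was not smaller in LynKO, with a mean change of -155 CPM against -134 in WT. Nfatc2, a calcium-regulated transcription factor, started level (-0.05 ± 0.11, 0.881). With R848 it had 18.1, 19.9, 18.5 and 21.8 CPM in LynKO, against 13.996, 15.01, 9.34 and 10.001 CPM in WT, with no overlap. Its response difference was 0.75 ± 0.15 (0.0363). Ccdc85b had 0.60 ± 0.14 with R848 (0.0114) from a start of -0.20 ± 0.12 (0.434). Klhl21, a substrate adaptor of a ubiquitin ligase, and Mnt, a partner of Max that opposes Myc, started lower in LynKO (-0.45 ± 0.10 and -0.31 ± 0.09) and had response differences of 0.73 ± 0.15 and 0.60 ± 0.12. Nfatc2 passed in 2 of the 8 fits without 1 mouse, with the highest adjusted p, 0.117, without LynKO 4. Klhl21 passed in 2 of the 8 fits without 1 mouse, with the highest adjusted p, 0.121, without LynKO 4. Ccdc85b passed in 0 of the 8 fits without 1 mouse, with the highest adjusted p, 0.147, without LynKO 4. Mnt passed in 1 of the 8 fits without 1 mouse, and not in the fit without LynKO mouse 4 (adjusted p = 0.0947). Fos passed in each fit without a mouse.

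Dkc1, the pseudouridine synthase of ribosome and telomerase biogenesis, was the one gene that rose in LynKO without passing in WT. It had 14.1, 13.9, 17.4 and 22.8 CPM with R848 in the LynKO mice, against 7.16, 11.7, 11.9 and 11.6 CPM in the WT mice, and 7.74, 6.45, 9.33 and 11.9 CPM without ligand in LynKO, against 8.20, 11.9, 9.44 and 8.59 CPM in WT. The response was 0.95 ± 0.12 in LynKO and 0.15 ± 0.13 in WT, with a response difference of 0.80 ± 0.18 (0.0473). It was 1 of 37 ribosome biogenesis genes and the only one called, against 0.657% of all genes. Of the 37, 5 had a difference below zero and 7 had all 4 LynKO mice above all 4 WT mice, against 3.04% of all genes; the median was 0.18, where it was -0.02 over all genes. R848 raised 30 of the 37 in LynKO and 26 in WT, against 29.3% and 31.7% of all genes. Dkc1 passed in 1 of the 8 fits without 1 mouse, with the highest adjusted p, 0.137, without LynKO 2.

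Of the 37 tested genes of the matrix, protease and adhesion list, 4 had a negative difference, among them Itgav, Plau and Thbs1, against 0.49% of all genes. The 1 with a positive difference was Mmp14, against 0.166%. The list's median was -0.16, against -0.02 over all genes, and 27 of the 37 lay below zero. Itgav, the integrin alpha V subunit, had 1018 ± 97.1 CPM in LynKO and 959.5 ± 118 in WT with R848, and 303 ± 35.9 and 182 ± 16.2 without it, with a response difference of -0.64 ± 0.10 (0.00985). Plau, the urokinase plasminogen activator, had 33.1, 21.5, 24.6 and 33.4 CPM with R848 in LynKO, against 30.4, 31.8, 26.6 and 22.9 CPM in WT, and 40.7, 20.997, 35.2 and 55.8 CPM without ligand in LynKO, against 9.92, 18.4, 27.8 and 10.1 CPM in WT (-1.24 ± 0.26, 0.0398). It was the one gene of the 87 whose responses overlapped between mice. Plau passed in 1 of the 8 fits without 1 mouse, with the highest adjusted p, 0.136, without LynKO 4. Thbs1, the adhesive matrix glycoprotein thrombospondin 1, fell in both genotypes, with responses of -1.32 ± 0.08 in LynKO and -0.77 ± 0.08 in WT. Its adjusted p of 0.0242 became 0.0738 without LynKO mouse 4, and it passed in 3 of the 8 fits without 1 mouse.

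Other genes started higher in LynKO and did not pass with R848. Clic4, an intracellular chloride channel protein, had 773, 715, 925 and 795 CPM with R848 in the LynKO mice, against 889, 813, 1086 and 885 CPM in the WT mice, and 311, 278, 335 and 327 CPM without ligand in LynKO, against 178, 219, 251 and 174 CPM in WT. The groups overlapped with R848 (-0.20 ± 0.11, 0.313) and lay apart without it (0.61 ± 0.12, 0.00253), and the response difference was -0.81 ± 0.10 (0.00091). Pik3ap1, the adaptor BCAP that links Toll-like receptors to PI3K, had a start difference of 0.51 ± 0.13 and a response difference of -0.65 ± 0.10 (0.00985). Pcdh7, a protocadherin, had 0.85 ± 0.14 and -0.66 ± 0.10 (0.00985). Bcl6, a transcriptional repressor of inflammatory genes, had 226, 219.6, 231 and 228 CPM with R848 in LynKO, against 256, 274, 246 and 241 CPM in WT, and 185, 176, 196 and 198 CPM without ligand in LynKO, against 144, 153, 168 and 143 CPM in WT. It rose by 0.26 ± 0.06 in LynKO and 0.74 ± 0.06 in WT (0.0163 for the difference), and all LynKO libraries lay above WT without ligand and below WT with R848. Bcl2, the survival factor, was low throughout, with 4.36 ± 0.47 CPM in LynKO and 5.03 ± 0.915 in WT with R848, and 3.13 ± 0.607 and 1.24 ± 0.313 without it; its response difference was -1.52 ± 0.31 (0.0363). Bcl2 passed in 1 of the 8 fits without 1 mouse, with the highest adjusted p, 0.125, without LynKO 2. Bcl6 passed in 4 of the 8 fits without 1 mouse, with the highest adjusted p, 0.0881, without LynKO 2.

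Spred2 and Trib1 also started higher in LynKO. Spred2, an inhibitor of Ras to ERK signalling, had 43.4 ± 7.35 CPM in LynKO and 53.4 ± 12.5 in WT with R848, and 16.2, 18.999, 16.5 and 16.9 CPM without ligand in the LynKO mice, against 8.66, 10.96, 12.02 and 9.19 CPM in the WT mice. Trib1, a pseudokinase that binds the kinase MEK1 and the ubiquitin ligase COP1, had 137 ± 5.93 CPM in LynKO and 153 ± 7.97 in WT with R848, and 39.7 ± 1.78 CPM in LynKO and 30.9 ± 2.41 in WT without ligand. Their response differences were -1.03 ± 0.19 and -0.52 ± 0.10 (0.0196 and 0.0235). Spred2 passed in 5 of the 8 fits without 1 mouse, with the highest adjusted p, 0.103, without LynKO 2. Trib1 passed in 3 of the 8 fits without 1 mouse, with the highest adjusted p, 0.0955, without LynKO 2. Of 21 MAP kinase feedback genes these were the 2 called, against 0.657% of all genes. In each genotype 14 rose with R848, against 29.3% of all genes in LynKO and 31.7% in WT. Rgs1, which shuts off G-protein signalling of chemokine receptors, started higher and ended lower in LynKO, with 67.2, 68.5, 65.4 and 56.9 CPM with R848 against 101, 73.4, 78.7 and 95.4 CPM in WT, and a response difference of -0.96 ± 0.16 (0.0125). Rgs1 passed in 7 of the 8 fits without 1 mouse, with the highest adjusted p, 0.0511, without LynKO 1. In Frmd6 and Tmcc3 too the level passed in both states with opposite signs, and they had the smallest p among the negative genes. Frmd6, a FERM domain protein of the Hippo pathway, had 36.4, 35.996, 32.01 and 23.3 CPM with R848 in LynKO, against 80.1, 72.3, 60.04 and 57.5 CPM in WT, and 7.64, 8.09, 8.74 and 9.20 CPM without ligand in LynKO, against 5.52, 6.98, 5.25 and 5.18 CPM in WT. It rose by 1.91 ± 0.13 in LynKO and 3.55 ± 0.13 in WT (-1.64 ± 0.18, 0.000438). Tmcc3, an endoplasmic reticulum membrane protein, fell to 9.12, 8.79, 8.23 and 8.80 CPM with R848 in LynKO and 14.4, 16.3, 13.5 and 10.1 CPM in WT, against 38.4, 33.1, 35.5 and 31.9 CPM without ligand in LynKO and 21.3, 23.2, 22.8 and 19.2 CPM in WT (-1.31 ± 0.14, 0.000438).

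In 28 genes the start levels did not pass and the level with R848 was lower in LynKO. Fam102b had 423, 427, 537 and 347 CPM with R848 in the LynKO mice, against 602, 529, 809.9 and 723 CPM in the WT mice, and 92.4 ± 6.61 CPM in LynKO and 81.8 ± 4.74 in WT without ligand. Its response difference was -0.79 ± 0.12 (0.00782). Tsc22d1, a leucine zipper regulator of transcription, had a response of 0.10 ± 0.10 in LynKO (0.395) and rose by 0.93 ± 0.09 in WT, with 49.4, 44.03, 59.1 and 49.5 CPM with R848 in LynKO, against 80.6, 72.3, 110.0 and 118 CPM in WT. Pot1b, a telomere end protein, had the same course, with 0.06 ± 0.09 in LynKO (0.601) and 0.81 ± 0.09 in WT and a difference of -0.76 ± 0.12 (0.00985). Mgat4a, a glycosyltransferase that branches N-glycans, rose by 0.35 ± 0.07 in LynKO and 0.98 ± 0.07 in WT (0.00801 for the difference). Its level differences were of like size, 0.30 ± 0.10 without ligand (0.08) and -0.33 ± 0.10 with R848 (0.0423). All its LynKO libraries lay above all WT libraries without ligand, and the groups overlapped with R848. In Tsc22d1 and Pot1b no LynKO library reached the lowest WT library with R848, and the groups overlapped without it. In Fam102b 1 LynKO library lay above the lowest WT library with R848, and the groups overlapped in both states. Tsc22d1 passed in 7 of the 8 fits without 1 mouse, with the highest adjusted p, 0.06, without LynKO 2.

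The membrane proteins Sirpa and C5ar1 were among these 28. Sirpa, an ITIM-bearing inhibitory receptor that binds CD47 and is a substrate of Src-family kinases, had 1598, 1602, 1659.5 and 1294 CPM with R848 in the LynKO mice, against 2013, 1999, 1891 and 1974 CPM in the WT mice. Without ligand it had 1242, 1317, 1302 and 1165 CPM in LynKO and 1223, 1281, 1249 and 1251 CPM in WT. The groups lay apart with R848 (-0.36 ± 0.07, 0.00506) and overlapped without it (0.01 ± 0.07, 0.979), and the response difference was -0.37 ± 0.08 (0.0363). C5ar1, the receptor for complement C5a, had 633, 672, 624 and 654 CPM with R848 in LynKO, against 788, 757, 749 and 768 CPM in WT, and a response of 0.10 ± 0.05 in LynKO (0.105) and 0.45 ± 0.05 in WT. Without ligand it had 589, 594, 583 and 643 CPM in LynKO and 576, 563, 558 and 538 CPM in WT, so LynKO lay above WT at the start, where the difference did not pass (0.11 ± 0.06, 0.33), and below it with R848. Its response difference was -0.35 ± 0.07 (0.038). Sirpa passed in 0 of the 8 fits without 1 mouse, with the highest adjusted p, 0.193, without LynKO 2. C5ar1 passed in 0 of the 8 fits without 1 mouse, with the highest adjusted p, 0.16, without LynKO 2. Of 22 inhibitory receptor genes Sirpa was the only one called, and of 33 G-protein-coupled and chemokine receptors C5ar1. Of 20 Src-family kinases and their membrane regulators it was Lyn, where 0.657% of all genes were called.

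Mki67, Mad2l1 and E2f8 were higher in LynKO at the start and had a negative response difference. Mki67, which encodes the Ki-67 antigen of cycling cells (GRCm38 chromosome 7, 135689784 to 135716361), had 273, 271, 248 and 125 CPM with R848 in the LynKO mice, against 295, 297, 337 and 197 CPM in the WT mice. Without ligand it had 69.5, 65.2, 58.6 and 52.002 CPM in LynKO, against 19.7, 29.4, 38.3 and 33.8 CPM in WT, with no overlap. It rose by 1.85 ± 0.16 in LynKO and 3.22 ± 0.17 in WT, a response difference of -1.37 ± 0.22 (0.00985), with a level difference of -0.30 ± 0.21 with R848 (0.419) and 1.01 ± 0.22 without it (0.00725). Mad2l1, of the spindle checkpoint, had a start difference of 0.66 ± 0.12 (0.00151) and a response difference of -0.80 ± 0.17 (0.0396). E2f8, a repressor of E2F targets, had 9.67, 11.5, 11.6 and 7.66 CPM with R848 in LynKO, against 12.9, 13.4, 15.3 and 10.2 CPM in WT, and 9.55, 10.8, 12.3 and 9.68 CPM without ligand in LynKO, against 5.47, 6.94, 6.57 and 7.42 CPM in WT (-1.04 ± 0.20, 0.024). Hmgb2, a chromatin protein of proliferating cells, started level (0.12 ± 0.09) and had 166, 146, 169.7 and 156 CPM with R848 in LynKO, against 189, 189.6, 238 and 239.8 CPM in WT (-0.54 ± 0.10, 0.0163). Hmgb2 passed in 6 of the 8 fits without 1 mouse, with the highest adjusted p, 0.103, without LynKO 2. Mad2l1 passed in 2 of the 8 fits without 1 mouse, with the highest adjusted p, 0.16, without LynKO 2. E2f8 passed in 1 of the 8 fits without 1 mouse, with the highest adjusted p, 0.0762, without LynKO 4. Mki67 passed in all 8.

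The promoters of these 4 genes are shown because a cell cycle element, the CHR, is known to lie in promoters of late cell cycle genes. The windows run from 250 bases before to 50 bases after the RefSeq start (GRCm38.p6), 5′ to 3′ on the strand of the gene, and capitals mark matches to the CHR letters TTTGAA on either strand. The Mki67 window is chr7:135716330-135716629 on the minus strand, with matches that begin 116 and 98 bases before the start. The Hmgb2 window is chr8:57511593-57511892 on the plus strand, with matches 218 and 30 bases before the start. The E2f8 window is chr7:48881547-48881846 on the minus strand, with 1 match 20 bases before the start, and the Mad2l1 window is chr6:66534971-66535270 on the plus strand, with none.
Mki67: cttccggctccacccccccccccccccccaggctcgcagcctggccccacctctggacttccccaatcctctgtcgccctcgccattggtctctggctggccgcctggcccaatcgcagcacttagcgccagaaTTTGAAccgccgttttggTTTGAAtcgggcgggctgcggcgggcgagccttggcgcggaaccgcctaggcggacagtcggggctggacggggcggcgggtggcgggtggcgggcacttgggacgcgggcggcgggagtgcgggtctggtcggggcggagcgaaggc
Hmgb2: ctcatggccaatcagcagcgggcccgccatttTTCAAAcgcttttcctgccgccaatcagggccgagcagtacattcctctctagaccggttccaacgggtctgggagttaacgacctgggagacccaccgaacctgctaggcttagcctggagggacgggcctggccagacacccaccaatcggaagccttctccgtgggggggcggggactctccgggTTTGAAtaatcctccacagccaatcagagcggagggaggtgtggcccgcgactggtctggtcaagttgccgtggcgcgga
E2f8: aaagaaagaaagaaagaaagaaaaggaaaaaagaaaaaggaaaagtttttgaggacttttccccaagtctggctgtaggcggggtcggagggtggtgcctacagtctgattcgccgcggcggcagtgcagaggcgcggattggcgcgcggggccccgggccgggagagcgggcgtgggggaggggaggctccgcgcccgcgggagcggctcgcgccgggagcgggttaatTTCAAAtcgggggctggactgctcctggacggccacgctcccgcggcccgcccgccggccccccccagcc
Mad2l1: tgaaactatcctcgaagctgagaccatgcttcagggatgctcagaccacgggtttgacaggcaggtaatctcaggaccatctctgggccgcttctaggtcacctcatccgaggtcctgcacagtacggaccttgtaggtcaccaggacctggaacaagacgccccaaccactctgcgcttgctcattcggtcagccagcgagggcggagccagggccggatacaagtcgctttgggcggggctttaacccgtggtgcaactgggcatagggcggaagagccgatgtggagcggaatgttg
A promoter window was at hand for 52 of the 65 genes with a negative difference, and 11 of these (21.2%) held the CHR letters, among them Clic4, Pcdh7, Tsc22d1, Pot1b and Bcl2, against 1 of 20 (5.0%), Fas, with a positive difference and 12.0% of 9718 windows of all tested genes. The AP-1 letters TGANTCA were in 2 of the 20 and 1 of the 52, against 4.93% of all windows. These are matches of letters on both strands, with no measure of binding.

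Over the cell cycle lists the response differed in few genes. Of 59 G2/M and mitosis genes 3 were called, all negative, Mki67, Hmgb2 and Mad2l1, against 0.49% of all genes. In this list 40 of the 59 lay below zero, with a median of -0.15 against -0.02 over all genes. Of 53 genes of G1/S and DNA replication 1 was called, E2f8, and the median was 0.02. The level differences were broader: of the G2/M genes 49 were higher in LynKO without ligand and 42 with R848, and of the G1/S genes 25 in each state, against 3.95% of all genes without ligand and 3.85% with R848. Top2a, the topoisomerase of dividing cells, had 72.4, 67.6, 61.2 and 46.1 CPM with R848 in LynKO, against 29.7, 31.1, 31.8 and 23.99 CPM in WT, and 54.7, 51.2, 45.04 and 49.8 CPM without ligand in LynKO, against 10.6, 25.4, 19.2 and 16.9 CPM in WT. Its response difference was -0.44 ± 0.20 (0.314). Mcm5, of the replicative helicase, and Ccnd1, cyclin D1, were likewise higher in LynKO in both states, and their response differences were -0.16 ± 0.15 (0.673) and 0.05 ± 0.18 (0.922). In each of the 3 genes every LynKO library lay above every WT library in both states.

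The main inflammatory cytokines did not pass for the response difference. In the cytokine list 0 of 23 genes were called, against 0.657% of all genes. In each genotype 18 of the 23 rose with R848, against 29.3% of all genes in LynKO and 31.7% in WT. Tnf had 1752, 1446, 2149 and 2348 CPM with R848 in the LynKO mice, against 2508, 1970.2, 3247 and 3979 CPM in the WT mice, and 8.62, 8.76, 8.26 and 14.1 CPM without ligand in LynKO, against 22.4, 18.1, 14.5 and 20.5 CPM in WT, with a response difference of 0.35 ± 0.21 (0.461). Its start was lower in LynKO (-0.92 ± 0.22, 0.0134), and its level with R848 stood at -0.60 ± 0.20 (0.0602). Il1b had 2107, 2679, 3098 and 2853 CPM with R848 in LynKO, against 3708, 3398, 5213 and 5575 CPM in WT, and was lower in LynKO in both states (-0.74 ± 0.19 with R848, 0.0228, and -1.78 ± 0.21 without ligand, 3.38e-05). Its response difference of 1.04 ± 0.24 stood just outside the threshold (0.0652). Il1a was lower in LynKO with R848 (-0.96 ± 0.19, 0.00404) and had a response difference of 0.22 ± 0.40 (0.847).

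Il12b and Il6 were at or near 0 without ligand, so that only their levels with R848 are compared. Il12b, the p40 subunit of interleukin-12 and interleukin-23, had 43.6, 49.1, 50.1 and 85.6 CPM with R848 in the LynKO mice, against 95.7, 95.7, 169 and 180.1 CPM in the WT mice, with each LynKO library below each WT library (-1.24 ± 0.22, 0.00333). Il6 had 8.87, 11.1, 17.7 and 19.7 CPM in LynKO, against 17.2, 16.7, 39.1 and 39.4 CPM in WT (-0.97 ± 0.28, 0.0352), with overlap. Within the mice labelled male (1 and 2) and within those labelled female (3 and 4), LynKO lay below WT. The part of sex in these levels was not tested. Il10, the anti-inflammatory cytokine, had 72.7, 80.2, 72.3 and 149 CPM with R848 in LynKO, against 38.7, 68.4, 68.1 and 54.3 CPM in WT; its level difference of 0.71 ± 0.24 did not pass (0.0768), nor did its response difference (0.31 ± 0.34, 0.716), though each LynKO library lay above each WT library with R848. Of 19 chemokines Ccl2 was the only one called, against 0.657% of all genes. Cxcl10 had 1.18 ± 0.42 (0.214), Cxcl1 -0.39 ± 0.27 (0.546), Cxcl2 0.18 ± 0.16 (0.65) and Ccl5 0.34 ± 0.44 (0.769). In the interferon-stimulated list 0 of 54 genes were called, and the median difference was 0.08. With R848 17 of the 54 rose in each genotype, near the 29.3% of all genes in LynKO and 31.7% in WT.

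The NF-kB subunit and feedback list held the largest number of positive calls of the 29 lists. All 30 of its tested genes rose with R848 in both genotypes, against 29.3% of all genes in LynKO and 31.7% in WT. A positive response difference was called in 4, Tnfaip2, Sod2, Socs3 and Birc3, against 0.166% of all genes, and a negative one in 0. In 7 of the 30 all LynKO responses lay above all WT responses, against 3.04% of all genes. Without ligand 13 of the 30 were lower in LynKO, against 3.1% of all genes, and 0 higher, and the median response difference was 0.08. Nfkbia, the inhibitor of NF-kB, had 1506 ± 223 CPM in LynKO and 1689.8 ± 139.7 in WT with R848, and 111 ± 11.8 and 159.5 ± 18.7 without it; its start passed (-0.53 ± 0.11, 0.0039) and its response difference did not (0.35 ± 0.09, 0.0986). Tnfaip3, the ubiquitin-editing enzyme A20, had -0.54 ± 0.10 at the start (0.00282) and a response difference of 0.27 ± 0.10 (0.209). Tlr7, the receptor of R848, had 144, 135, 125 and 66.9 CPM with R848 in LynKO, against 193, 171, 205 and 178 CPM in WT, and 115, 103, 108 and 74.1 CPM without ligand in LynKO, against 146, 130.4, 136 and 138 CPM in WT. LynKO mouse 4 was the lowest of the 8 in both states. Its level was lower in LynKO with R848 (-0.66 ± 0.17, 0.0188) and did not pass without ligand (-0.46 ± 0.17, 0.122).

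**Figure D5:**
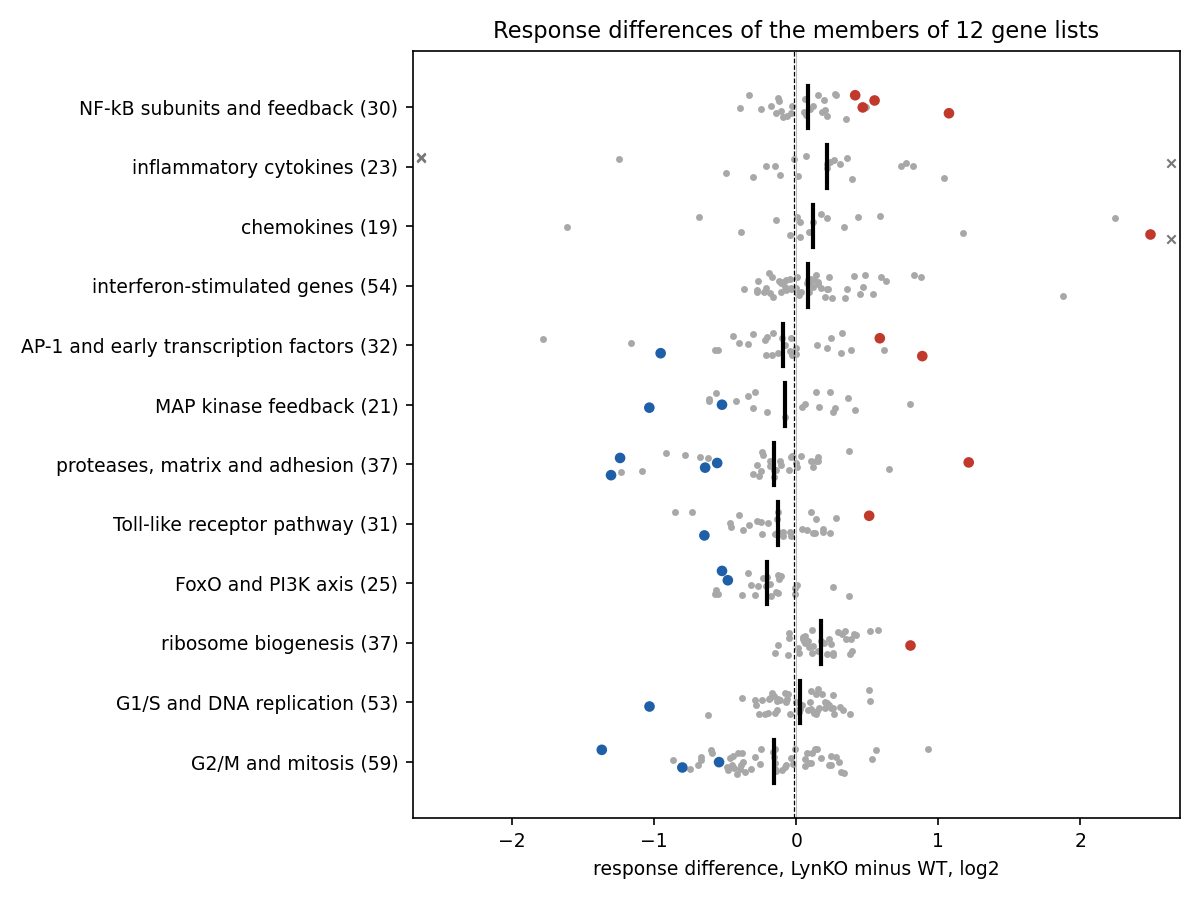
Response differences (LynKO minus WT, log2, x axis) of the tested genes of 12 gene lists, 1 row a list with its number of genes; red and blue points passed the threshold, grey points did not, black bars are list medians and the dashed line is the median of all genes. Crosses at the edges are Ccl7 (2.76), Csf3 (5.65), Il23a (-3.11) and Inhba (-3.64), which lie beyond the axis and did not pass. The medians lie between -0.21 for the FoxO and PI3K list and 0.22 for the cytokines.

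The remaining lists held few calls or none, where 0.657% of all genes were called, 0.166% positive and 0.49% negative. Of 25 FoxO and PI3K axis genes 2 were called, Bcl6 and Trib1, both negative. In this list 22 of the 25 lay below zero, with a median of -0.21 against -0.02 over all genes. Of 31 Toll-like receptor pathway genes Tlr2 had a positive and Pik3ap1 a negative difference. Of 33 survival and death genes Birc3 and Fas were positive and Bcl2 negative, and of 32 AP-1 and early transcription factor genes Fos and Ier3 were positive and Rgs1 negative. Acod1 was the only one called of 18 genes of prostaglandin, nitric oxide and itaconate synthesis. There were 0 calls in the lists of MHC class II and costimulation, colony-stimulating factors, cholesterol synthesis, LXR targets, hypoxia and glycolysis, NRF2 targets, the unfolded protein response, heat shock, lysosome, mature macrophage markers, activating receptors, and cell cycle entry and brakes. Clec4e, the C-type lectin Mincle, lay just outside the threshold (0.43 ± 0.09, 0.0527), with a start of -0.72 ± 0.11 (0.000372).

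The transcripts gained or lost per mouse, on the linear CPM scale, give a different picture of the induced genes. Of the 15 genes with a positive difference that rose in both genotypes, the CPM gain was higher in all LynKO mice than in all WT mice in 1, Ccl2, lower in 3, Acod1, Tnfaip2 and Tlr2, and overlapped in 11. Acod1 gained 3424 ± 589 CPM in LynKO and 4787 ± 435 in WT (mean ± SD, n = 4 each), and Mmp14 229 ± 46.96 and 296 ± 60.9. Of the 44 genes with a negative difference that rose in both, the gain was lower in all LynKO mice in 28 and overlapped in 16, and Clic4 gained 489 ± 68.01 CPM in LynKO and 713 ± 98.6 in WT. Over all 65 negative genes the change was lower in all LynKO mice in 46, against 6.12% of all genes. Over all 22 positive genes it was higher in all LynKO mice in 7, against 3.21%. The genes were chosen by the response difference of the same mice, so these shares describe them and are no further test. Among the 76 named genes 38 stood at 0.0286, the smallest two-sided p that exact permutation of 4 LynKO and 4 WT mice allows, and 0 passed after adjustment over the 76. Of the 76, 47 had passed for the response difference in the same mice, so this count is no further test. Over all genes the CPM changes did not overlap in 9.33%. With this smallest p, a gene could pass the adjustment only if most of the 76 stood at it. For Acod1, Tnfaip2 and Tlr2 the mice of the 2 genotypes lay apart in opposite directions on the log scale and on the CPM scale. In others of the 15 the mean gain was also lower in LynKO, with overlap. Sod2 gained 1239 CPM in LynKO and 1497 in WT, and Socs3 1842 and 1961. Ccl2 and Sema4a had the higher mean gain in LynKO.

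LPS, the ligand of Toll-like receptor 4, was given to cells of the same mice at 2 ng/mL. The LPS comparison uses the same NT libraries as the R848 comparison, so values are set side by side. Of 13472 genes in the fit with the LPS libraries, 86 (0.638%) had a response difference with LPS, 33 positive (0.245%) and 53 negative (0.393%). Of the 22 genes positive with R848, 14 were called with LPS as well, and of the 65 negative genes 34. Mmp14 had 1.21 ± 0.13 with R848 and 1.15 ± 0.17 with LPS, Acod1 1.28 ± 0.16 and 1.45 ± 0.15, Frmd6 -1.64 ± 0.18 and -1.01 ± 0.20, and Mki67 -1.37 ± 0.22 and -1.21 ± 0.21. The R848 values are from the fit of 16 libraries and the LPS values from the fit of 24, so they do not subtract exactly to the differences below. The difference between the 2 response differences, in which the NT libraries cancel, passed in 0 genes by edgeR's test, with 651 genes at an unadjusted p under 0.05, and in 1 by DESeq2. For Mmp14 it was 0.10 ± 0.14, for Acod1 -0.13 ± 0.14 and for Frmd6 -0.58 ± 0.17 (R848 minus LPS, log2 ± SE). A missed threshold does not show that the 2 ligands act alike.

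Transcript length moved with the sign of the difference. The 65 negative genes had a median exon length of 6947 bases, and 56 of them lay above the median of all tested genes, 4128 bases; the 22 positive genes had a median of 4054. Over all genes the median response difference was 0.10, 0.04, -0.04 and -0.13 in 4 equal bins of genes from shortest to longest. The part of length in the medians of the gene lists was not tested. The log2 level of the longest bin minus the shortest was -0.278 to 0.197 in LynKO with R848, with mouse 4 lowest, -0.203 to 0.0345 in LynKO NT, -0.0223 to 0.301 in WT with R848 and -0.280 to -0.0436 in WT NT. With an offset for length in each library, an alternative added after seeing the data, 54 genes passed, 17 positive and 37 negative. Of the 87, 53 passed with it, 16 positive and 37 negative, all 87 kept their sign, and the 21 genes that passed in each fit without a mouse passed here as well. Among the genes described above, Lyn, Bcl2, Bcl6, Trib1, Sirpa, Mad2l1, Ccl2, Ccdc85b, Fas and Dkc1 did not pass with the offset (adjusted p = 0.0617, 0.0616, 0.0534, 0.0683, 0.0635, 0.0617, 0.0567, 0.0525, 0.0877 and 0.0647).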

How the data were processed

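Poly(A) RNA of bone marrow-derived macrophages was sequenced in pairs of reads, and the values used are raw counts per gene deposited by the authors; per the submitters' processing notes the build was GRCm38 and the tools included DESeq2, featureCounts (Subread 1.5.2), the aligner STAR 2.5.2b and Trimmomatic 0.36. For the annotation release and the strand setting, nothing is given in the sources used here, and reads of overlapping and antisense genes cannot be told apart. A deposited table of transformed values was not used. The table held 49315 identifiers, 48970 with a symbol, and 21569 had no count in the 16 libraries.

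Genes were kept by edgeR's filter (minimum count 10, minimum total 15), scaled by TMM, and tested with edgeR 4.0.16 (R 4.3.3) by the quasi-likelihood test, with 8 mouse terms, a ligand term for each genotype, and Benjamini-Hochberg adjustment over 13252 genes at 0.05. Levels were compared in a fit of the 4 groups without the mouse term. CPM are counts scaled by the TMM-adjusted library total, and the log2 responses of single mice use a prior count of 2. DESeq2 1.42.0 was an alternative. The labels give the same-numbered libraries of a genotype to one mouse, which the Y-linked transcripts of LynKO NT 4 and LynKO R848 4 go against; the deviations of the 8 pairs from the group means correlated at r = 0.131 to 0.379. Libraries of LynKO and WT with the same number correlated at 0.169 to 0.327 with R848 and 0.0711 to 0.212 without it. In counts simulated for 13252 genes, the response difference test recovered 87% of genes changed 2-fold and 62% of those changed 1.5-fold, with 7 false calls. The changed genes had a mean of at least 5 CPM, and the counts were drawn from a fitted model with mouse terms. A response difference that varies with length and a mismatched pair of libraries were not simulated, so these values hold for that setting.

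The labels say that the cells of the 4 mice of a genotype were differentiated and treated independently. Named genes are Lyn, a set of cytokine, feedback and cell cycle genes, and those with the largest differences or smallest p over all genes, by class and by list, with a mean of at least 5 CPM for the largest; genes beyond these were chosen after their values were seen. The comparison, the lists and the named genes were chosen with earlier results of these data known. Alternatives were another scaling, no filter, DESeq2, other sets of libraries, other blocks, a sex by ligand term, leaving out each mouse and, added after seeing the data, an offset for transcript length. Some results are not reported here.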

Additional observations from a re-analysis of the deposited data

Results flagged for a closer look

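The R848 response differed between LynKO and WT in 87 genes by the test of the difference itself, described above.

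Among 156 groups of 4 mice or libraries, 13 held a value far from the other 3, where chance alone gives about 1 in 20 groups. In LynKO the response (log2) of mouse 4 stood apart for Mmp14 (6.019), Mki67 (1.258), Sod2 (4.07), Trib1 (1.606), Slc23a2 (0.1664), Samd9l (0.2456) and Top2a (-0.1103), and that of mouse 1 for Stard4 (0.7613). In WT the response of mouse 3 stood apart for Acod1 (6.803) and Tlr7 (0.5982), and that of mouse 1 for Fas (2.577) and C1qa (-0.7271). The library of LynKO mouse 4 with R848 also stood apart in the level of the longest of 4 bins of genes by length minus the shortest (-0.278, log2).

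Y-linked transcripts reached 89.6257 CPM in LynKO NT 4, a library labelled female. Without mouse 4, 42 genes passed for the response difference, 40 of them among the 87.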

How the results depend on the processing

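All 87 genes kept the sign of their difference in every alternative, while the number that passed varied. Given as all, positive and negative, the counts of 87, 22 and 65 were 255, 46 and 209 with DESeq2, 432, 117 and 315 when low-count genes were kept, 3, 1 and 2 with no replicate block, 173, 63 and 110 with all 48 libraries, 346, 81 and 265 with a sex by ligand term, and 54, 17 and 37 with the length offset. With the 24 libraries that include LPS 38 were positive. Leaving out 1 mouse gave 28 to 67 in all, 9 to 20 positive and 19 to 54 negative. The replicate number as a block across genotypes gave 688, 159 and 529; the responses of same-numbered mice correlated at 0.0488 to 0.127, so the numbers are not taken as pairs there. With R848 LynKO and WT differed in 1899 genes with the replicate block and 496 in the fit of 8 libraries alone, and in 701 to 1010 without 1 mouse; without ligand they differed in 593 to 943 without 1 mouse. The difference between the R848 and the LPS response differences passed in 15 genes with no filter, 1 with DESeq2 and 0 to 1 without 1 mouse.

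The classes (start only, R848 level only, both, neither) held 39, 31, 10 and 7 genes. They held 62, 95, 16 and 82 with DESeq2 and 0, 0, 3 and 0 with no replicate block. With the fit of 8 libraries alone the last 3 held 13, 5 and 22, with the length offset 17, 6 and 4, and with RLE size factors neither held 11. Without 1 mouse they held 15 to 34, 4 to 25, 3 to 10 and 3 to 19. Of the alternatives for single named genes 1022 left the call as it was, 208 lost it, 52 gained it and 9 turned the sign, none of the 9 in a gene that passed. Those were Il12b with DESeq2 (-0.78), with the block across genotypes (-0.15) and without 1 mouse (range -1.16 to 0.53), and, each without 1 mouse, Il6 (range -1.12 to 0.91), Ccl5 (-0.0915 to 0.72), Il1a (-0.065 to 0.57) and Ccnd1 (-0.12 to 0.25). The cause was not tested. The depth limits Il12b and Il6, which had next to no counts without ligand.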
